A study of Mus musculus with 12 samples.

Results

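The Kelch-like genes and the core of the ubiquitin ligase they serve were examined in ribosome-bound RNA of mouse hippocampus. The set holds every gene of the deposited count table whose symbol begins with Klhl and a number, together with Cul3, Keap1 and Rbx1, provided that at least 15 reads were summed over the 12 libraries. All 40 genes that the names select reached this minimum, of 24079 genes in the table and 17823 that reached it. They are 37 Klhl genes, 2 core subunits (Cul3 and Rbx1) and Keap1, a Kelch-like protein with a name of its own.

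The libraries came from Wfs1-CreERT2:RiboTag mice, in which a tamoxifen-activated Cre recombinase under the control of Wfs1, a gene expressed in CA1 pyramidal neurons, turns on the ribosomal protein Rpl22 with an HA tag. The HA-tagged ribosomes were immunoprecipitated from whole hippocampus and the RNA bound to them was sequenced. There were 6 WT libraries and 6 Fmr1-/y libraries, the latter from mice without Fmr1, the gene of the RNA-binding protein FMRP (the labels spell it Frm1 in places). Mice of both genotypes were males aged 2 to 6 months on a C57BL/6J background, carried the Cre and the tagged ribosomal protein, and received 100 mg/kg tamoxifen on 3 days, 1 week before tissue was taken. Each library was a pool of 4 to 6 mice, so that the spread between libraries is a spread between pools.

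A cullin-RING ubiquitin ligase is an assembly in which the cullin is the scaffold. Cul3 binds at its far end Rbx1, the RING protein that brings in the ubiquitin-loaded E2 enzyme, and at its near end an adaptor with a BTB domain. In Kelch-like adaptors the BTB domain is followed by a BACK domain and a propeller of Kelch repeats that holds the substrate, so that the adaptor sets which protein is ubiquitylated. Attachment of Nedd8 to the cullin turns the ligase on and the COP9 signalosome removes it. In neurons such adaptors are known for roles in actin and glutamate receptor turnover, and Keap1 is known everywhere for holding down the oxidative stress factor Nrf2.

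Depth was 39400980 to 65565479 reads per library. The reads of Fmr1 itself matched the labels, with 1971 to 2608 in WT libraries and at most 1 in any Fmr1-/y library. Summed over 6 CA1 pyramidal markers (Wfs1, Slc1a1, Camk2a, Pou3f1, Mpped1 and Neurod6) the level was 7428 to 9101 CPM in WT and 7223 to 8484 CPM in Fmr1-/y libraries, where CPM is counts scaled to a common library size with TMM factors. Markers of other cells were present too. The 5 astrocyte markers summed to 554.2 to 705.0 CPM in WT and 623.0 to 978.9 in Fmr1-/y, the 4 endothelial markers to 30.4 to 44.2 and 38.5 to 58.7, and the 3 choroid plexus markers, nearly all Ttr, to 6177 to 11579 and 8102 to 17023. At an unadjusted p under 0.05, 3 of 6 CA1 markers were lower in Fmr1-/y (Wfs1, Mpped1 and Neurod6), and 3 of 5 astrocyte, 3 of 4 endothelial, 2 of 3 choroid plexus and 1 of 3 CA2 markers were higher. No GABAergic (7), microglial (5), oligodendrocyte (5), dentate granule (3) or CA3 (3) marker reached that p. Over all genes tested 3.67% were lower and 4.29% higher at that p. None of the markers had zero reads in any library. In such bulk samples fewer cells of a type and less ribosome-bound RNA per cell cannot be told apart, and the part of these markers in the results below was not tested beyond the covariate values given for Klhl13.

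The adaptors resemble each other in sequence, which matters for reads of 50 bases. Over the 703 pairs of Keap1 and the Klhl proteins, translated from the GENCODE coding sequences, the median identity of aligned residues was 29.6% and 6 pairs reached 50%. The closest pair was Klhl13 and Klhl9, with 547 identical of 612 aligned residues (89.4%), followed by Klhl2 and Klhl3 (75.6%), Klhl1 and Klhl5 (67.8%), Klhl1 and Klhl4 (66.0%), Klhl4 and Klhl5 (65.0%), and the muscle adaptors Klhl40 and Klhl41 (53.0%). Klhl13 lies on chromosome X from 23219271 to 23365161 on the minus strand of GRCm38 (mm10) in 7 exons, whereas Klhl9 is a 1-exon gene on chromosome 4 from 88718292 to 88722508, also on the minus strand. The following stretches of coding sequence are the 50-base windows in which the 2 closest pairs are most alike, shown because they set how well a read can be assigned. They are written 5′ to 3′ along the coding strand, from the GENCODE transcripts, with capitals at the bases that differ within the pair.
Klhl13, chrX:23235615-23235664: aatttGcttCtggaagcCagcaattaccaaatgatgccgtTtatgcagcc
Klhl9, chr4:88721152-88721201: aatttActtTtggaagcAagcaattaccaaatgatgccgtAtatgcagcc
Klhl2, chr8:64779844-64811712, across an intron: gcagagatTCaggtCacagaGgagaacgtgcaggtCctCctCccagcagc
Klhl3, chr13:58063847-58071592, across an intron: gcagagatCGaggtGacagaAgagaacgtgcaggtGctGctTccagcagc
The window of Klhl13 and Klhl9 holds 46 identical bases and 4 differences, and that of Klhl2 and Klhl3 holds 43 and 7. The authors discarded alignments with more than 3 mismatches, so an error-free read of either window fell outside that limit on the other gene. No 50-base window of any member's transcripts was found in a transcript of another member. The members with more than 1.5% of their windows in genes outside the set were Klhl17 21.3% (nearly all with Plekhn1, which overlaps it on the same strand and under which GENCODE lists the Klhl17 transcript, so that this share may come from that annotation), Klhl41 4.52% (repeats), Rbx1 3.50% (the pseudogene Rbx1-ps) and Klhl20 1.65% (repeats). Reads that overlapped 2 genes on 1 strand were left uncounted in HTSeq's union mode, so the level of Klhl17 is uncertain where the gene models used for counting overlap in this way. Klhl13 shared 1.42% of its windows, all with Gm14523.

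The core subunits and a few adaptors were abundant in the HA-tagged ribosome pulldown, and most adaptors were not. The pulldown also held RNA of other cells, as the markers above show, and how much of each level came from CA1 pyramidal neurons was not tested. Levels are compared between genes as CPM per kilobase of merged exons, in WT libraries with the SD over 6. The highest member of the set was Klhl2, the actin-binding adaptor also called Mayven, at 35.8 ± 2.52, followed by Klhl7 at 29.5 ± 2.95 and Rbx1 at 21.7 ± 2.22. Klhl23 (21.3 ± 0.676), Klhl9 (20.1 ± 1.17), Cul3 (20.1 ± 0.276) and Klhl22 (18.8 ± 1.77) came next. The ratio of the RING protein to the scaffold, Rbx1 to Cul3, depended on the length used: per kilobase of merged exons it was 0.947 to 1.24 in WT and 1.03 to 1.31 in Fmr1-/y libraries, and per kilobase of the longest transcript 1.56 to 2.04 and 1.69 to 2.16. The genotypes overlapped on both scales. On merged exons Keap1, at 15.4 ± 1.59, stood at 0.686 to 0.864 times Cul3 in WT and 0.643 to 0.859 times in Fmr1-/y. Summed over the 37 Klhl genes, the level per kilobase was 12.3 to 12.9 times that of Cul3 in WT libraries and 10.9 to 14.1 times in Fmr1-/y libraries. With the longest transcript as the length, WT levels were over 1.5 times higher for Klhl2 (64.6), Rbx1 (37.0), Klhl22 (30.2), Klhl12 (17.3), Klhl5 (15.1), Klhl18 (9.02), Klhl20 (4.78) and Klhl15 (0.382), and Klhl12 moved from place 16 to place 9.

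**Figure D1:**
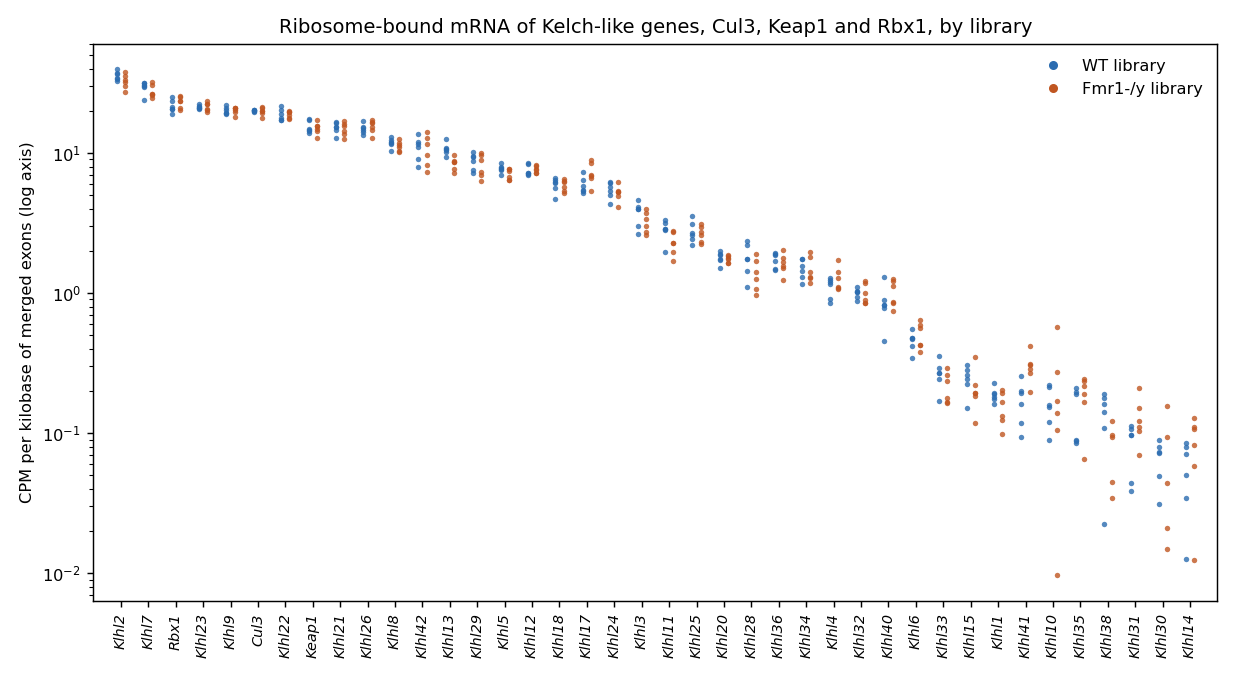
Level of each of the 40 members in CPM per kilobase of merged exons (log axis) in each WT (blue) and Fmr1-/y (orange) library, ordered by the WT mean; libraries with 0 reads are not drawn. From Klhl2 at 35.8 to Klhl14 at 0.0552 in WT the means span 649-fold, and the genotypes lie over each other at nearly every gene.

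Along this order most neighbours could not be separated. The WT ranges of 35 of the 39 neighbouring pairs overlapped, and the exceptions were the steps from Klhl2 to Klhl7, from Klhl26 to Klhl8, from Klhl12 to Klhl18 and from Klhl25 to Klhl20. Below the first 7 genes came Keap1, Klhl21 (15.2 ± 1.40), an adaptor of Aurora B at the end of mitosis, and Klhl26 (14.9 ± 1.23). The middle of the order, from 11.9 to 5.46 CPM per kilobase, was made up of Klhl8, Klhl42, Klhl13 (10.7 ± 1.05), Klhl29, Klhl5, Klhl12, Klhl18, Klhl17 (5.92 ± 0.814) and Klhl24. Among them Klhl12 is known for the Dishevelled proteins and the COPII coat protein Sec31a, Klhl42 for the microtubule-severing protein katanin, and Klhl17, also called actinfilin, and Klhl24 for kainate receptor subunits. Klhl3 (3.72 ± 0.731), an adaptor of the WNK kinases as Klhl2 is, was followed by Klhl11, Klhl25 (4E-BP1), Klhl20 (DAPK1 and PML), Klhl28, Klhl36, Klhl34, Klhl4, Klhl32 and Klhl40, down to 0.845.

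The last 11 members were at 0.456 CPM per kilobase or less in WT, and several of them are known from other tissues. They were Klhl6 (B lymphocytes), Klhl33, Klhl15, Klhl1, Klhl41 and Klhl31 (skeletal muscle), Klhl10 (testis), Klhl35, Klhl38, Klhl30 and Klhl14. Their depth is thin. Klhl10 had as few as 1 read in a library, Klhl14 3, and Klhl38 and Klhl30 each had 0 reads in an Fmr1-/y library (replicate 1 and replicate 2), which allows up to 0.0554 and 0.0595 CPM by counting error alone. In CPM without regard to length, 7 Klhl genes were under 1 CPM, 15 under 5 and 11 over 50 in WT. The 5 highest Klhl genes made up 51.7% of the summed Klhl CPM in WT and the 10 highest 74.9%. Klhl2 alone took 21.5 to 25.6% in WT and 18.4 to 25.1% in Fmr1-/y libraries.

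WT libraries differed from each other to a very unequal degree from gene to gene. Among the 25 members at 5 CPM or more in WT the median CV over the 6 WT libraries was 9.81%. Cul3 had the lowest, 1.38%, below the 1.52% that counting error alone gives at its depth. Klhl23 (3.17%) and Klhl9 (5.82%) were also steady. Klhl28 had the highest at 26.2%, followed by Klhl3 (19.7%), Klhl42 (19.0%), Klhl25 (17.5%) and Klhl11 (16.7%), all far over their counting error of 1.80 to 5.76%.

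Several members, among them Klhl28 and Klhl42, were low and high in the same libraries, in both genotypes. Klhl28 was at 8.07 CPM in WT replicate 6 and 10.4 in WT replicate 1 against 12.6 to 17.0 in the other WT libraries, and at 7.004, 7.79 and 9.08 in Fmr1-/y replicates 5, 2 and 1 against 10.2 to 13.8 in the other Fmr1-/y libraries. Klhl42 was at 51.1 and 58.5 CPM in WT replicates 1 and 6 against 70.7 to 87.9, and at 47.3, 53.0 and 62.2 in Fmr1-/y replicates 5, 1 and 2 against 75.0 to 91.1. The same 5 libraries were thus the lowest of their genotype for Klhl28 and Klhl42, and also for Klhl3, Klhl29, Klhl21 and Klhl18. Klhl11 and Klhl25 did not keep to this order: Klhl11 was at 6.68 CPM in Fmr1-/y replicate 1, the highest of that genotype, and Klhl25 was lower in WT replicate 2 (9.37 CPM) than in WT replicate 1 (10.1 CPM). Keap1 ran the other way in WT, with 82.5 and 80.9 CPM in replicates 1 and 6 and 65.5 to 69.6 in the rest. Rbx1 did so in both genotypes, at 114.5 and 106.6 CPM in WT replicates 1 and 6 against 86.6 to 97.6, and at 107.4 to 115.8 in Fmr1-/y replicates 1, 2 and 5 against 93.0 to 106.7. These libraries also stood apart over the whole table. The first component of the deviations from the genotype means, over 5987 genes with a mean log2 CPM over 5, held 52.2% of the variance, and WT replicates 1 and 6 and Fmr1-/y replicates 1, 2 and 5 had the scores on 1 side of it, from -13.2 to -5.81, while the others had 0.561 to 13.0. No label names what these libraries share, and its part in the genotype differences was not tested. The component was taken within each genotype, so a fit with it as a covariate can hardly move a genotype difference.

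**Figure D2:**
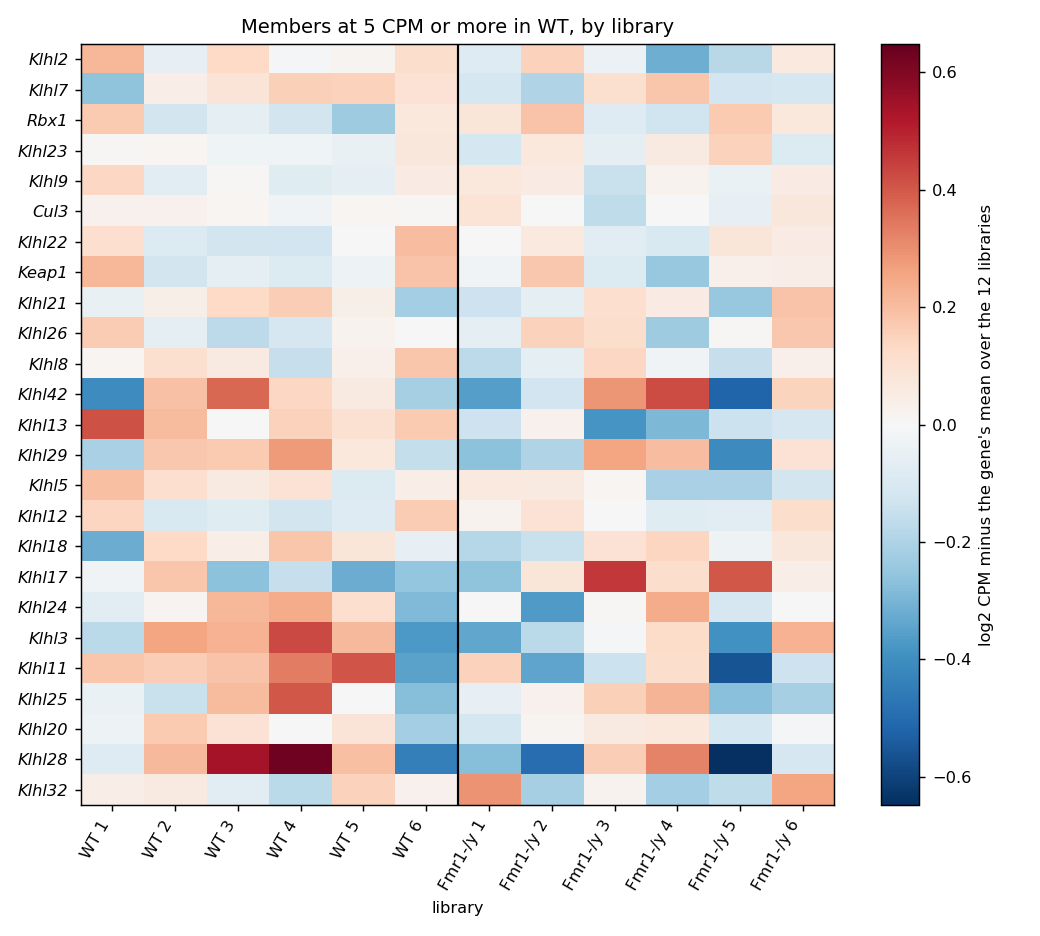
Log2 CPM of the 25 members at 5 CPM or more in WT, as the difference from each gene's mean over the 12 libraries (red above, blue below), with WT libraries left of the line and Fmr1-/y libraries right of it. Klhl28, Klhl42, Klhl29 and Klhl3 are blue in WT 1 and 6 and in Fmr1-/y 1, 2 and 5 alike, and Klhl13 is red or white in WT and blue in every Fmr1-/y library but replicate 2.

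Between the genotypes the family as a whole lay close together. By the quasi-likelihood test of edgeR, adjusted over all 17823 genes, 0 of the 40 members passed 0.05, where 0.0224% of genes did (4 genes), and the smallest adjusted p of a member was 0.216, that of Klhl13. At an unadjusted p under 0.05, 1 member was lower in Fmr1-/y (Klhl13), where 3.67% of all genes were, and 2 were higher (Klhl41 and Klhl17), where 4.29% were. DESeq2's Wald test, of the family the study used, gave an adjusted p under 0.05 for 1 of the 35 members it adjusted, again Klhl13, where 0.571% of genes passed. No member had every Fmr1-/y library below every WT library (0.410% of all genes did) or above (0.213%). The log2 fold change, Fmr1-/y minus WT, was below 0 for 24 members and above it for 16, with a median of -0.03 against 0.0042 over all genes tested, and 20 members were within 0.1 of 0. The summed Klhl level was 1414 to 1461 CPM in WT and 1282 to 1429 CPM in Fmr1-/y libraries. Fmr1-/y replicates 1, 2, 4 and 5 (1309, 1394, 1372 and 1282 CPM) lay below the lowest WT library, and replicates 3 and 6 within the WT range.

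**Figure D3:**
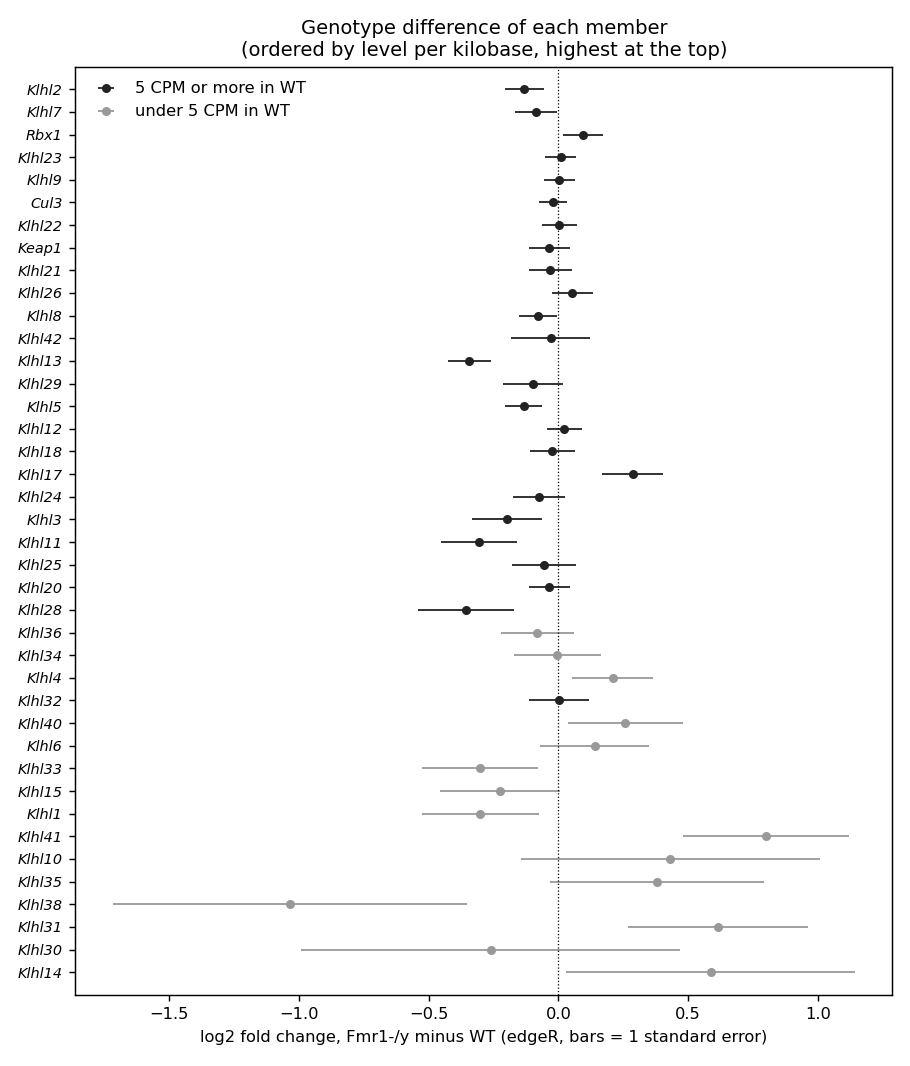
Log2 fold change of each member, Fmr1-/y minus WT, from edgeR with bars of 1 standard error, ordered by WT level per kilobase from the top; black marks members at 5 CPM or more in WT and grey those below. Klhl13 at -0.34 lies over 4 standard errors from 0, and the widest bars belong to the rarely read genes at the bottom.

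Klhl13, known with Klhl9 as an adaptor that acts on Aurora B in mitosis, had the largest difference relative to its error. Its level was 40.1, 44.8 and 53.4 CPM (lowest, median and highest) in the 6 WT libraries and 30.7, 36.5 and 40.9 CPM in the 6 Fmr1-/y libraries. Of the Fmr1-/y libraries 5 lay below the lowest WT library, and the exception, replicate 2 at 40.9, lay just above WT replicate 3. The Fmr1-/y mean of 35.8 ± 3.55 (SD, n = 6) was 78.8% of the WT mean of 45.4 ± 4.45, with a log2 fold change of -0.34 (SE 0.082). In edgeR the unadjusted p was 0.00061 and the adjusted p 0.216, rank 50 of 17823, and in DESeq2 the adjusted p was 0.0226, rank 53, so that whether it passed depended on the tool. The reads behind it numbered 1363 to 2871 per library. With WT replicate 1, the highest library, left out, the log2 fold change was -0.29 and the adjusted p 0.342. The adjusted p was higher still without WT replicate 2 (0.463), WT replicate 5 (0.450) or Fmr1-/y replicate 1 (0.389). There the log2 fold change was -0.34, -0.36 and -0.35. Without Fmr1-/y replicate 2 (0.191) or 6 (0.203) the adjusted p was below that with all libraries.

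Some of the markers named above also differed between the genotypes, so Klhl13 was fitted beside them. With the summed CA1 markers as a covariate, a fit chosen after seeing the data, its log2 fold change was -0.27 (unadjusted p 0.0110, adjusted p 0.793), and with the summed astrocyte, endothelial and choroid plexus markers it was -0.27 (0.0123 and 0.861). In each of these marker fits 0.0056% of all genes (1 gene) had an adjusted p under 0.05, against 0.0224% (4 genes) without a covariate. The higher adjusted p is thus not particular to Klhl13. Single genes dominate both sums. In WT Camk2a held 6207 of the 8456 CPM of the CA1 sum. Ttr held 8323 CPM, against 634.9 for the astrocyte and 36.5 for the endothelial markers, which thus weighed little. With the first component of the libraries the log2 fold change of Klhl13 was -0.34 and the adjusted p 0.0158, in a fit in which 0.572% of all genes passed (102 genes). That component was taken from deviations from the genotype means. The fit could thus lower the spread within genotypes but hardly move the fold change, and it does not test the component's part in it. Klhl13 lies on the X chromosome, as Fmr1 does. Of 626 X-linked genes tested 33 were lower and 28 higher at an unadjusted p under 0.05, with a median log2 fold change of -0.002. Over all genes 3.67% were lower and 4.29% higher at that p, with a median of 0.0042. The other X-linked members were Klhl34 (-0.004), Klhl4 (0.21) and Klhl15 (-0.23), none with an unadjusted p under 0.05.

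Klhl9, the close relative of Klhl13, gave no such difference. Its level was 79.6, 82.5 and 92.1 CPM in WT and 75.9, 86.2 and 87.9 CPM in Fmr1-/y libraries, with overlapping ranges and a log2 fold change of 0.0027 (SE 0.059, unadjusted p 0.964 in edgeR). The difference between both genes was tested on their log2 ratio within each library. The ratio of Klhl13 to Klhl9 was -1.07 to -0.79 in WT (mean -0.89 ± 0.11) and -1.38 to -1.09 in Fmr1-/y libraries (mean -1.24 ± 0.10), with no overlap. The means differed by -0.35 (two-sided exact permutation test over 924 splits, p = 0.00216, the smallest this design allows). Klhl13 was taken up with its lower level already known, so the test is not independent evidence of it. The summed level of both genes was 123.7 to 145.5 CPM in WT and 106.6 to 128.1 CPM in Fmr1-/y.

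**Figure D4:**
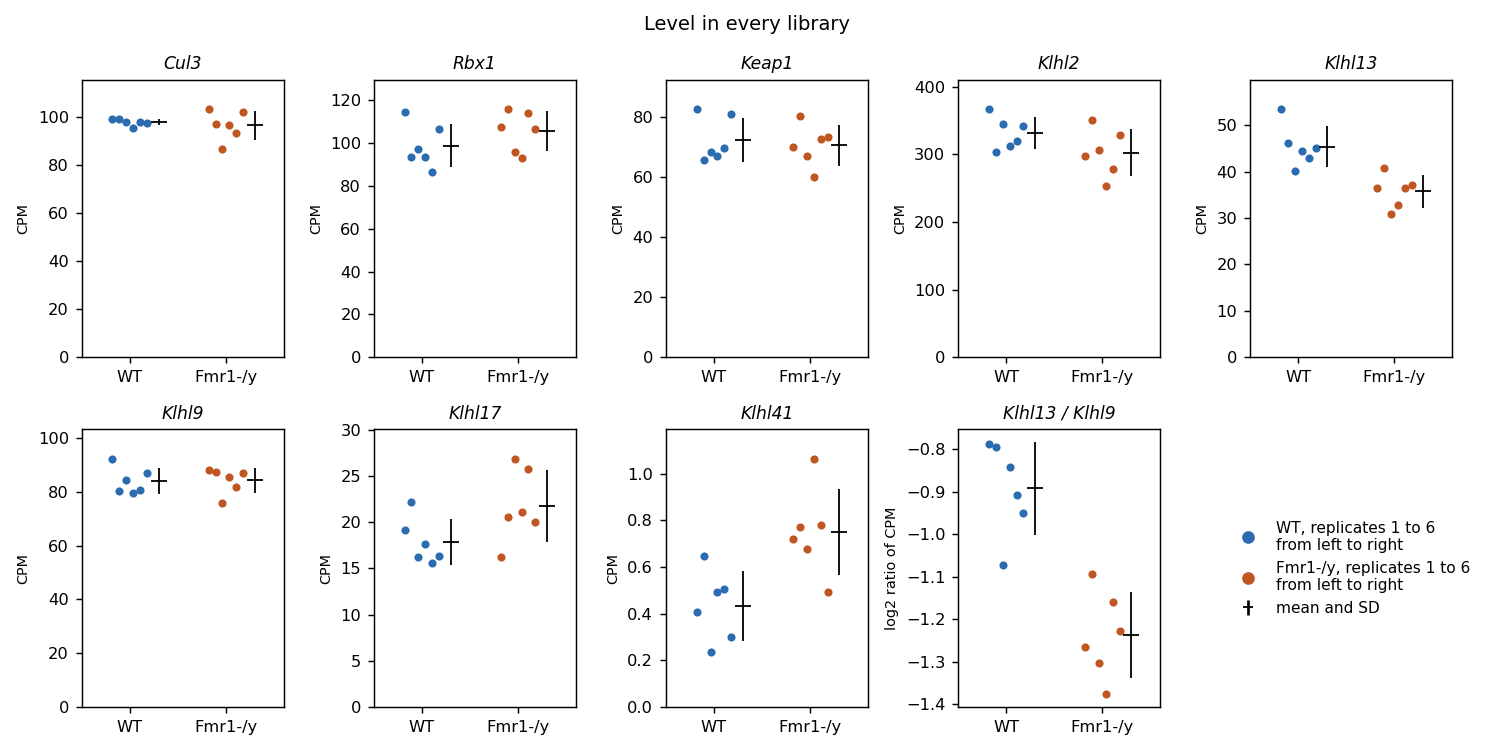
CPM of 8 members in each library, and the log2 ratio of Klhl13 to Klhl9, with WT in blue, Fmr1-/y in orange and the mean and SD in black. The points overlap between genotypes for Cul3, Rbx1, Keap1, Klhl2, Klhl9, Klhl17 and Klhl41 and by 1 library for Klhl13, and the ratio does not overlap.

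The core of the ligase was nearly level. Cul3 was at 95.5, 98.0 and 99.2 CPM in WT and 86.7, 97.0 and 103.2 CPM in Fmr1-/y libraries, a log2 fold change of -0.02 (SE 0.055). The Fmr1-/y libraries spread to both sides of the narrow WT range, 2 below it and 2 above. Rbx1 was at 86.6, 95.7 and 114.5 CPM in WT and 93.0, 107.0 and 115.8 CPM in Fmr1-/y (log2 fold change 0.10, SE 0.076, unadjusted p 0.227). Keap1, the adaptor of Nrf2, was at 65.5, 68.9 and 82.5 CPM in WT and 60.1, 71.4 and 80.2 CPM in Fmr1-/y, a log2 fold change of -0.04 (SE 0.079). The direction of the Cul3 and Keap1 values turned under other settings, so neither gene has one. With standard errors of 0.055 to 0.079, a log2 difference of that size in these genes was not detectable. For Rbx1 and Keap1 the spread between WT pools (CV 10.2% and 10.3%) was far over the counting error (1.505% and 1.76%).

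The 2 members higher at an unadjusted p lay on unlike levels. Klhl17, the actin-associated adaptor of the kainate receptor subunit GluK2, was at 15.6, 17.0 and 22.1 CPM in WT and 16.3, 20.8 and 26.8 CPM in Fmr1-/y libraries. Only Fmr1-/y replicates 3 and 5 lay above the highest WT library. Its log2 fold change was 0.29 (SE 0.12, unadjusted p 0.0275, adjusted p 0.542 in edgeR), and the unadjusted p was over 0.05 without Fmr1-/y replicate 3 or 5 or WT replicate 3, 5 or 6. Klhl41, a muscle adaptor, was at 0.238, 0.451 and 0.647 CPM in WT and 0.495, 0.746 and 1.06 CPM in Fmr1-/y, from 12 to 51 reads a library. There 5 of 6 Fmr1-/y libraries lay above the highest WT library. The log2 fold change was 0.80 (SE 0.32, unadjusted p 0.0229, adjusted p 0.524), and the unadjusted p was over 0.05 without Fmr1-/y replicate 4 or WT replicate 3.

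The most abundant adaptors of the set differed little. So did Enc1, a BTB-Kelch gene outside the set that was higher in CPM (1761 ± 120.9 in WT and 1724 ± 153.6 in Fmr1-/y, log2 fold change -0.03). Klhl2 was at 303.9, 330.3 and 366.2 CPM in WT and 253.1, 302.1 and 350.0 CPM in Fmr1-/y libraries, 3 of which lay below the WT range (log2 fold change -0.13, SE 0.075, unadjusted p 0.0960). Its relative Klhl3 was at 19.3 to 33.6 CPM in WT and 19.0 to 29.3 in Fmr1-/y (-0.20, unadjusted p 0.159). Klhl7, a gene mutated in inherited retinal degeneration, was at 94.1, 120.0 and 125.5 CPM in WT and 98.6, 104.3 and 128.0 CPM in Fmr1-/y (-0.09, SE 0.081, unadjusted p 0.293). The remaining members with an unadjusted p under 0.1 were Klhl11 (-0.31, p 0.0526), Klhl28 (-0.36, p 0.0695), Klhl5 (-0.13, p 0.0754) and the rarely read Klhl31 (0.62, p 0.0944). None of these had an adjusted p below 0.63.

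Other members kept to a narrow band where they were well read. Among the 25 members at 5 CPM or more the log2 fold change ran from -0.36 (Klhl28) to 0.29 (Klhl17). Klhl23, Klhl22, Klhl12, Klhl32 and Klhl26 lay between 0.003 and 0.053, and Klhl21, Klhl8, Klhl42, Klhl29, Klhl18, Klhl24, Klhl25 and Klhl20 between -0.10 and -0.02. The log2 fold changes of the rarely read members spread further, from -1.04 for Klhl38 (0.295 CPM in WT and 0.145 in Fmr1-/y, SE 0.68) to 0.80 for Klhl41. Klhl1, Klhl33, Klhl30 and Klhl36 had values below 0, and Klhl40, Klhl6, Klhl10, Klhl35 and Klhl14 above 0, all with an unadjusted p over 0.05.

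**Figure D5:**
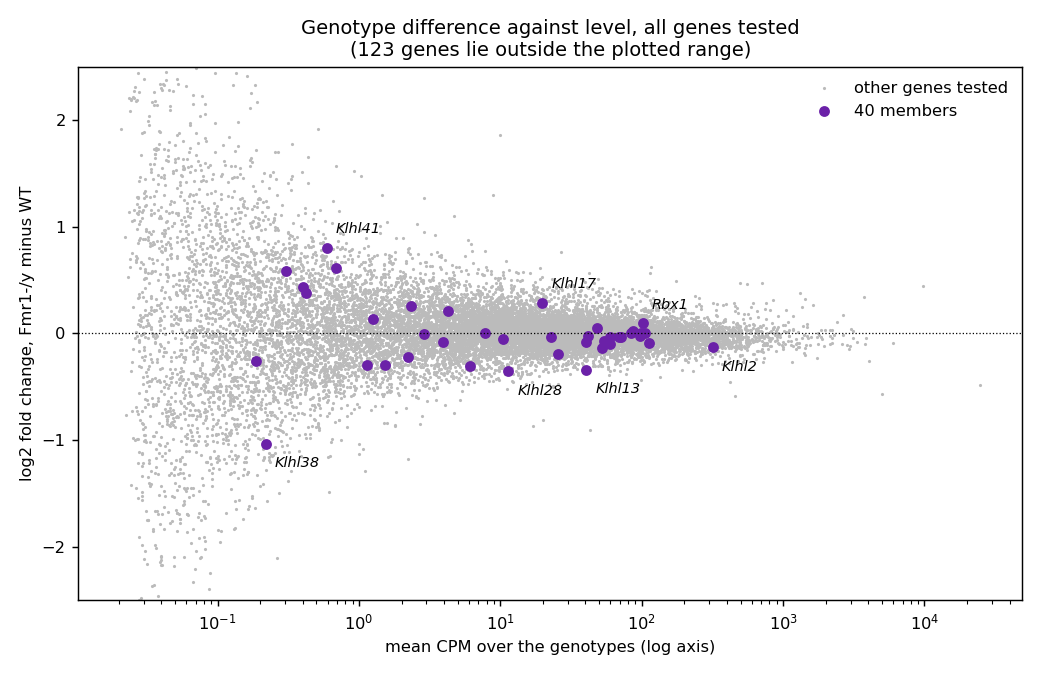
Log2 fold change, Fmr1-/y minus WT, against the mean CPM over the genotypes (log axis) for all 17823 genes tested (grey) and the 40 members (purple); 123 genes lie outside the plotted range. The members widen toward low levels as the other genes do, and Klhl13, Klhl28 and Klhl17 sit near the rim of the grey band.

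Of the genes around the family, taken as 7 lists, 0 had an adjusted p under 0.05 in edgeR (0.0224% of all genes did) and 0 in DESeq2 (0.571%). Of 23 genes of neddylation and the COP9 signalosome tested, 0 had an unadjusted p under 0.05, where 3.67% of all genes were lower and 4.29% higher. The smallest p values were those of Dcun1d4, a promoter of neddylation (169.9 ± 11.7 CPM in WT and 156.3 ± 17.4 in Fmr1-/y, log2 fold change -0.12, p 0.120), and Cops5, the catalytic subunit of the signalosome (78.3 ± 6.20 and 83.5 ± 5.86 CPM, 0.09, p 0.187). Of the 7 other cullins 0 reached that p. Cul4b was at 48.1 ± 6.85 and 57.0 ± 12.2 CPM (0.24, p 0.0640) and Cul2 at 53.0 ± 2.07 and 55.4 ± 3.11 CPM (0.06, p 0.292).

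The other adaptors of Cul3 and their Kelch relatives gave few low p values, as did all genes, of which 3.67% were lower and 4.29% higher at an unadjusted p under 0.05. Of 12 BTB-Kelch genes under other names 0 had an unadjusted p under 0.05, with Kbtbd11 at 502.0 ± 25.4 CPM in WT and 459.0 ± 40.8 in Fmr1-/y (-0.13, p 0.0570) and Kbtbd3 at 4.26 ± 0.653 and 4.86 ± 0.854 (0.19, p 0.207). Of 21 BTB adaptors without Kelch repeats 1 was higher at that p, Kctd11 (2.89 ± 0.420 and 3.71 ± 0.793 CPM, 0.36, p 0.0389), and Btbd6 came next (40.5 ± 2.98 and 36.9 ± 3.18 CPM, -0.14, p 0.0831). Of 10 Kelch genes without a BTB domain 1 was higher, Klhdc8b (22.4 ± 2.80 and 27.1 ± 5.04 CPM, 0.28, p 0.0298), with Klhdc3 next (185.8 ± 6.63 and 177.6 ± 8.04 CPM, -0.07, p 0.219).

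Transcripts of proteins reported as substrates of these adaptors differed little in their median. Of 20 tested 0 had an unadjusted p under 0.05 in edgeR, where 3.67% of all genes were lower and 4.29% higher. The median log2 fold change was -0.04, against 0.0042 over all genes. The values ran from -0.70 for Aurkb (SE 1.05) to 0.28 for Wnk4 (SE 0.15). Aurkb, which encodes Aurora B, was hardly read, at 0.127 CPM in WT and 0.0778 in Fmr1-/y. The substrate proteins, on which these ligases act, were not measured here. Depdc5, a brake on mTORC1 reported as a substrate of Klhl22, was at 67.7 ± 4.21 CPM in WT and 61.7 ± 4.16 in Fmr1-/y (-0.13, p 0.0516), and Dapk1, a kinase reported as a substrate of Klhl20, at 208.4 ± 10.3 and 190.7 ± 17.7 (-0.13, p 0.0607). Of 18 genes for Nrf2 and its targets, the readout of Keap1, 17 had a log2 fold change above 0. The median was 0.04, against 0.0042 over all genes, and the share of all genes above 0 was not counted. Several of the 17 were next to 0, among them Gclc (0.00013), Ftl1 (0.0047), Me1 (0.0053) and Pgd (0.0070). Fth1 was below 0 (-0.08). Of the 18 genes 2 had an unadjusted p under 0.05, the quinone reductase Nqo1 (12.01 ± 0.591 and 14.8 ± 3.25 CPM, 0.30, p 0.0243) and the peroxidase Prdx1 (137.9 ± 14.6 and 158.7 ± 19.8 CPM, 0.20, p 0.0284). Nfe2l2, which encodes Nrf2, was at 10.8 to 15.6 CPM in WT and 9.502 to 18.6 in Fmr1-/y (0.14, p 0.332). At an unadjusted p under 0.05, 3 of 5 astrocyte, 3 of 4 endothelial and 2 of 3 choroid plexus markers were higher in Fmr1-/y as well, none of them at an adjusted p under 0.05, and their part in these values was not tested.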

How the data were processed

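The authors aligned single-end reads of stranded polyadenylated libraries with TopHat 2.1.1 and Bowtie 2.2.8 to mm10, discarded alignments with more than 3 mismatches, counted with HTSeq 0.6.1p1 in union mode, and deposited raw counts per gene. Genes with at least 15 reads in total were kept, the study's filter (17823 genes). Genotypes were compared with edgeR 4.0.16 (TMM, quasi-likelihood test, no block, two-sided, Benjamini-Hochberg over all genes, threshold 0.05) in R 4.3.3. The SE is the log2 fold change's size divided by the square root of F. Alternatives used DESeq2 1.42.0 (the study's tool), limma 3.58.1 voom, other scalings and filters, a replicate block, left-out libraries and covariates. Log2 CPM used a prior count of 2. The scripts were tested on simulated counts.

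Members were matched to GENCODE transcripts by Entrez identifier (39) or RefSeq accession (1), and gene positions are RefSeq's on GRCm38. Proteins were aligned with Biopython 1.88 (BLOSUM62). The labels name no separate cultures or litters. The p-values set the genotype difference against the spread between pools, not between single mice. Libraries of a genotype differed well beyond sampling noise, so none was counted as a duplicate. Intervals from reads cover counting error only. Input RNA, which would separate transcript abundance from ribosome binding, was not analysed here. The values of 1 marker gene are not reported here. Members and lists were chosen with earlier results of these data known. Every member is named, with library values for Klhl13, Cul3, Keap1, Rbx1, members with an unadjusted p under 0.05, the closest relative of Klhl13 and the 3 highest members per kilobase. Of each list Nfe2l2 and the 2 smallest p values are given, and Enc1 for its level.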

Additional observations from a re-analysis of the deposited data

Results flagged for a closer look

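Among the 80 groups of 6 libraries searched (40 members in each genotype), 1 held a library set apart from the rest, where chance gives about 4. Klhl7 in WT was at 94.1 CPM in replicate 1 (5060 reads) and at 116.4 to 125.5 CPM in the other WT libraries, a gap of 0.71 of the whole range. That library is also an extreme of the first component over all genes given above, and the part of that component in this value was not tested.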

How the results depend on the processing

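Of 23 alternatives, 21 left the number of members at an adjusted p under 0.05 at 0. It was 1 (Klhl13) in DESeq2 and 1 with the first library component as a covariate, a fit added after seeing the data. All genes gave 0.571% and 0.572% there. The component was taken within each genotype, so the latter fit lowers the spread within genotypes and can hardly move a fold change. The number at an unadjusted p under 0.05, 3 in the report, where 7.96% of all genes had such a p, was 5 with the replicate block (8.39% of all genes), 5 with the CA1 marker covariate (6.07%), 7 with the astrocyte, endothelial and choroid plexus covariate (5.75%) and 9 with the first component (13.6%; these 3 added later), and 1 to 5 with a library left out; without WT replicate 3 only Klhl13 was left, and without WT replicate 6 or Fmr1-/y replicate 1 or 2 there were 5. The cause was not tested. Klhl13 kept its sign in all 23, from -0.38 to -0.27 (adjusted p 0.0158 to 0.861); its values in the 2 fits that passed were -0.34 and -0.34. Klhl17 (0.22 to 0.45), Klhl41 (0.66 to 0.95), Rbx1, Klhl2 and Klhl7 kept theirs. Values next to 0 turned: Cul3 was 0.0034 with library totals, and -0.040 to 0.0090 with a library left out (above 0 without Fmr1-/y replicate 3). Keap1 was 0.048 and 0.040 with the CA1 and the other marker covariate, and -0.075 to 0.0070 with a library left out (above 0 without Fmr1-/y replicate 4 or WT replicate 1). Klhl9 was -0.0045 with the astrocyte, endothelial and choroid plexus covariate and -0.012 to 0.031 with a library left out (below 0 without WT replicate 2, 4 or 5 or Fmr1-/y replicate 1, 2, 4 or 6). The ratio of Klhl13 to Klhl9 differed by -0.38 to -0.32 in 13 alternatives (exact permutation p 0.00216 to 0.00433). The ratio does not overlap between the genotypes, so leaving a library out can only return the smallest p possible. These p values thus say nothing further. With the longest transcript in place of merged exons 9 of the 10 highest members per kilobase were shared, with the moves given above. DESeq2 gave 1 reported substrate at an unadjusted p under 0.05 (8.47% of all genes had such a p), where edgeR gave 0 (7.96%).

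The deviations of same-numbered libraries had a mean correlation of 0.025 over all genes (-0.081 to 0.090, with 0 of 12 libraries closest to their own number) and of 0.15 over genes with a mean log2 CPM over 5 (-0.44 to 0.60, 3 of 6 pairs over 0.1 and 2 of 12 libraries closest to their own number). Not every pair was over 0.1, so the numbers were not taken as pairs. With the replicate block Klhl13 was at -0.34 with an adjusted p of 0.136. Depth limits the 11 lowest members, whose reads fell to 0 to 58 in their poorest library.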
